A study of Mus musculus with 42 samples.

Results

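Stromal cells of the mouse distal colon that had lost Smad4 were compared with the same cells carrying intact Smad4. The cells were marked by Gli1, a transcription factor of the Hedgehog pathway that labels fibroblast-like cells beneath the gut epithelium. The members of this comparison were 4 of the 42 samples of the series, 2 sorted samples with the Smad4 deletion (GS4T) and 2 control samples (GWTT), and the genes were all those of the distal table whose normalized counts averaged 10 or more across these 4 libraries, which was 15262 of 17114 genes. Normalized counts here are gene read counts divided by a size factor for each library.

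Both groups carried Gli1-CreERT2, a tamoxifen-activated Cre recombinase under the control of Gli1, together with Rosa26-tdTomato, a red reporter that is switched on by Cre. GWTT mice had no other engineered allele, whereas GS4T mice also carried Smad4 fl/fl, in which Cre removes part of Smad4. All mice received tamoxifen (20 mg/ml, 100 μl a day) and were analysed on day 30, after which the colon was cut into segments, digested with collagenase and sorted by flow cytometry for tdTomato. The reporter therefore labels the cells in which Cre was active and their descendants, whether or not both Smad4 alleles were removed in them. Mice were 2 to 4 months old and of both sexes, and in the 4 distal libraries Xist was present and no Y chromosome gene had a row. Whether a library came from a single animal or several is not stated, so p-values describe the spread between the 2 libraries of a group. The labels name the tissue as intestinal epithelium, although these samples were sorted stromal cells, and the marker genes below were checked for that reason.

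Bone morphogenetic proteins (BMPs) are secreted ligands of the TGF-β family. They bind receptors such as Bmpr1a (also called Alk3), which phosphorylate Smad1, Smad5 and Smad9, and these enter the nucleus together with the shared partner Smad4 to switch on genes such as Id1 to Id4 and Smad6. TGF-β and activin ligands act through Smad2 and Smad3, which also use Smad4. In the colon the fibroblasts next to the crypt base secrete BMP antagonists and Wnt ligands, whereas those nearer the lumen secrete BMPs.

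Recovered whole reads ranged from 14222902 in GS4T 2 to 18507490 in GS4T 1, and the 10 most abundant genes held between 9.24% and 9.89% of them. The libraries of a group were not duplicates, since their counts differed by far more than sampling noise (chi-square per gene of 18 for GWTT and 42.5 for GS4T). With 2 libraries against 2, an exact two-sided permutation test of a single gene cannot fall below p = 0.333, so genes were tested with limma, which shares its estimate of the spread across all genes. A gene was called where the Benjamini-Hochberg adjusted p was under 0.05 and the log2 fold change (GS4T over GWTT, on the log2(normalized count + 1) scale) was at least 1 in size.

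Smad4 itself, the targeted gene, had normalized counts of 1781 and 1703 in GWTT 1 and 2, and 680 and 1171 in GS4T 1 and 2. Both GS4T libraries were below both controls, and GS4T 2 kept more of the transcript than GS4T 1. The log2 fold change was -0.96 (SE 0.25, adjusted p = 0.042), which passed the p threshold and missed the fold threshold. It was -1.35 without GS4T 2 and -0.57 without GS4T 1. The p threshold was missed without GWTT 1 (adjusted p = 0.16), without GWTT 2 (adjusted p = 0.14) and with edgeR (adjusted p = 0.059). The counts cover the whole gene, so that reads outside the deleted part still count. Smad4 was also present in sorted Muc2-mCherry goblet cells of control mice, at 157 CPM (reads scaled to the library total). Sorted cells may also have kept an intact Smad4 allele. The part of each of these in the remaining transcript was not tested. Bmpr1a, the receptor that was not targeted here, stood at 2944, 3062, 2545 and 2527 normalized counts in GWTT 1, GWTT 2, GS4T 1 and GS4T 2, a difference that did not pass the test (log2 fold change -0.24, adjusted p = 0.13). Gli1, the gene whose promoter drives the Cre, was at 1634 and 1353 in the controls and 875 and 1096 after Smad4 loss (log2 fold change -0.60, SE 0.16, adjusted p = 0.0452), also below the fold threshold.

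The sorted cells were read as fibroblasts from their markers, with other cell types carried along. Marker lists were summed in CPM for each library. The pan-fibroblast genes (Col1a1, Pdgfra and others) summed to 68109 and 55920 in the controls and 72551 and 74439 in GS4T. The same genes reached only 10.4 to 25.5 CPM in the 4 distal Muc2-mCherry goblet cell libraries of the series. The epithelial genes summed to 86.6 and 259 in the controls and 1042 and 2086 in GS4T, so that they were higher in both GS4T libraries, although still far from the 15640 to 18320 of the goblet cells. Epcam, a pan-epithelial surface protein, was at 8.94, 26, 115 and 201 CPM in GWTT 1, GWTT 2, GS4T 1 and GS4T 2, against 1607 to 1873 in the goblet cell libraries. Neutrophil genes summed to 20.6 and 14.8 in the controls and 519 and 330 in GS4T, and macrophage genes to 780, 687, 2343 and 1272. B and plasma cell genes went the other way, from 21414 and 28004 to 902 and 5583. Endothelial genes summed to 147, 142, 101 and 242, and the groups overlapped. In such bulk samples, a smaller number of cells of a type and less RNA per cell cannot be told apart.

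**Figure D1:**
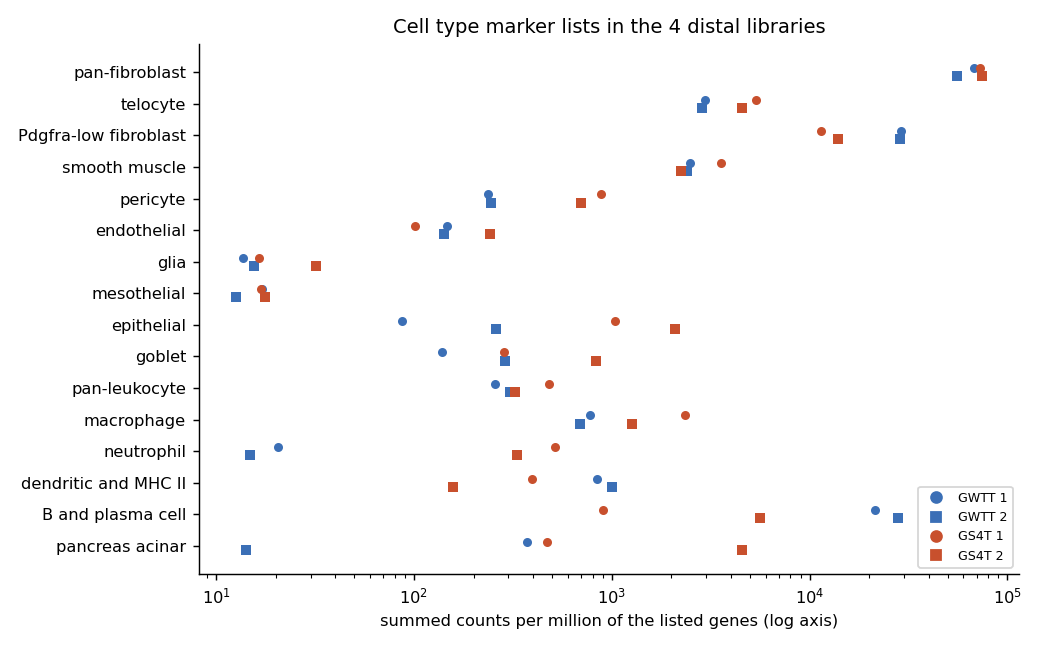
Summed CPM of each cell type marker list (log axis), with each of the 4 distal libraries as a point. The pan-fibroblast list was the highest in every library, the epithelial and neutrophil lists were higher in both GS4T libraries, and the B and plasma cell list was lower in both.

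To keep the stromal genes apart, each gene was placed in a class. Genes of the leukocyte marker, immunoglobulin, T cell receptor and MHC class II lists formed the leukocyte class. Genes of the epithelial lists, and genes at least 4 times higher in CPM in the control Muc2-mCherry goblet cells than in the mean of the 4 stromal libraries, formed the epithelial class. All others were called stromal or unassigned, because a gene can be shared between cell types and no list is complete.

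Smad4 loss was accompanied by 2130 called genes, which was 14.0% of the 15262 tested. Of these, 1202 were higher (7.88%) and 928 were lower (6.08%) in GS4T. In each of the 2130 the values of the groups did not overlap. That is not evidence apart from the call, and the share of all genes tested without overlap is not given here. The classes moved apart. Among 13592 stromal or unassigned genes, 757 were higher and 824 were lower (11.6% called) with a median log2 fold change of -0.03, beside 0.0 for all genes tested. Among 1425 epithelial class genes, 427 were higher and 18 were lower (median 1.09). Among 245 leukocyte class genes, 18 were higher and 86 were lower (median -2.94). Of these 245 genes, 183 were immunoglobulin genes, with 74 lower and none higher, so that they weigh most in the class median. When 1 library was left out, so that the remaining library of that group was assumed to vary like the other group, the stromal or unassigned class held between 498 and 689 higher and between 367 and 805 lower calls. The balance turned with the setting, with 529 higher and 423 lower without GWTT 1, 498 and 367 without GWTT 2, and 807 and 773 after scaling over stromal or unassigned genes, a setting added after seeing the data. The epithelial class then held between 189 (without GWTT 1) and 317 higher calls, and the leukocyte class between 34 (without GWTT 1 or GWTT 2) and 141 (without GS4T 2) lower ones. With other class boundaries, 1457 stromal or unassigned genes were called with the epithelial class drawn at 2 times the stromal level and 1735 with it drawn at 10 times. Because the 4 stromal libraries include GS4T, a rise in GS4T itself lowers the ratio that sets the class. Against the GWTT libraries alone, a boundary also added after seeing the data, 637 stromal or unassigned genes were higher and 832 were lower (median -0.05), and 547 epithelial class genes were higher and 10 were lower. Clca4b, Prss22, Bmp8b, Lama3, Lamb3, Il1rn, Nos2, Fgf1 and Cdkn2b, described below with the stromal or unassigned genes, were epithelial class by that boundary.

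**Figure D2:**
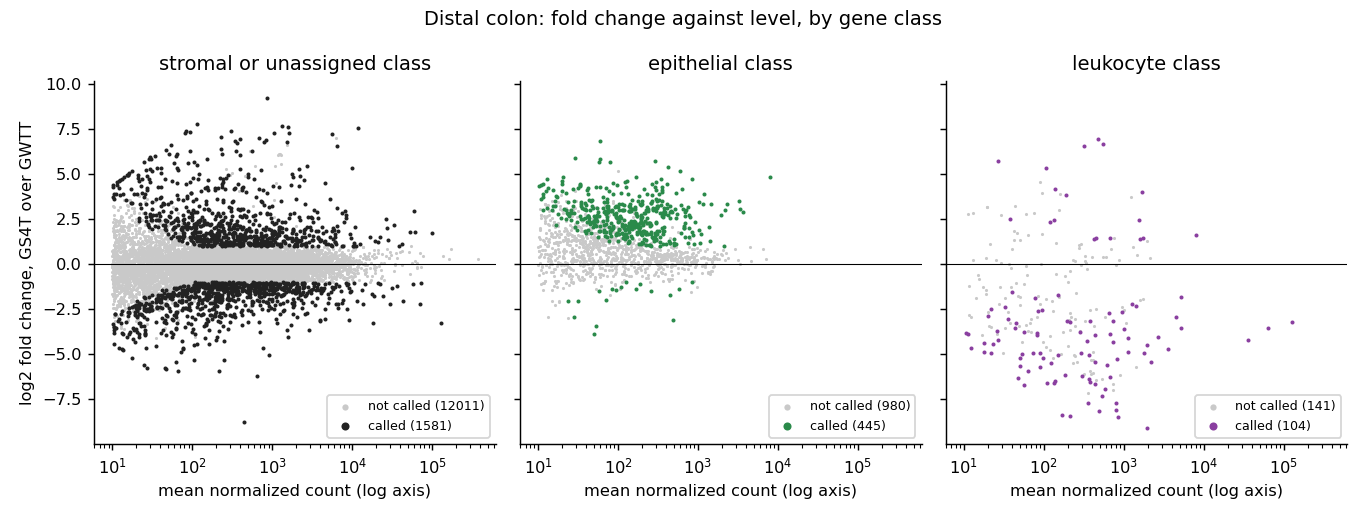
Log2 fold change (GS4T over GWTT) against the mean normalized count (log axis), 1 panel for each gene class, with each point a gene and called genes coloured. The stromal or unassigned class held 757 higher and 824 lower calls, and the epithelial class was shifted upward (median 1.09). The leukocyte class, mostly immunoglobulin genes (183 of 245), was shifted downward (median -2.94) with a small group of higher genes.

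The 12 largest increases among named genes of the stromal or unassigned class, leaving out a row whose symbol is stored as a date, ran from Clca4b (log2 fold change 9.26) to the protease Mmp8 (7.06). Mmp13, a collagenase that cuts fibrillar collagen, rose from 63.6 and 73.6 normalized counts in the controls to 15155 and 6932 in GS4T, which was 161-fold by the group means (log2 fold change 7.21, SE 0.35, adjusted p = 0.00061). Hp, which encodes the haemoglobin-binding protein haptoglobin, rose from 213 and 59.1 to 14472 and 32444, or 172-fold (log2 fold change 7.58, adjusted p = 0.00188). Lcn2, an iron-sequestering antimicrobial protein, rose from 40.1 and 8.71 to 2197 and 4329, or 134-fold (log2 fold change 7.27, adjusted p = 0.00266). Mmp8, the neutrophil collagenase, stood at 4.89 and 0.968 in the controls and at 488 and 424 in GS4T (log2 fold change 7.06, adjusted p = 0.00198). In each of these genes both GS4T libraries were far above both controls, and no called gene had overlapping groups. Hp, Lcn2 and Mmp8 are also textbook products of maturing neutrophils, as is the granule protein Ngp (8.8 and 0, then 307 and 892, adjusted p = 0.00934), and all of the 9 neutrophil markers were called higher in GS4T, but the part of these cells in the result was not tested.

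Several of the largest increases were close to absent from the controls. Tcerg1l, a transcription elongation regulator-like gene, had no read in either control and 159 and 298 normalized counts in GS4T, at least 78.4-fold higher against a floor of 3 reads per library. The potassium channel Kcnj15 (0 and 0, then 92.1 and 282) was at least 64.1-fold higher, and the serine protease Prss22 (0 and 0, then 106 and 220) was at least 55.8-fold higher. Clca4b, a member of the calcium-activated chloride channel regulator family, went from 0 and 4.84 to 875 and 2516 (701-fold, adjusted p = 0.00298). By the boundary drawn against GWTT alone, Clca4b and Prss22 were epithelial class genes. Clca4b was also found in Muc2-mCherry goblet cells, at 41.9 CPM in control and 126 in those of mice with stromal Smad4 loss, and its part from epithelial cells was not tested. Tpm3-rs7, a near copy of the tropomyosin gene Tpm3 with which it may share reads, went from 5.87 and 22.3 to 2726 and 2502 (log2 fold change 7.69, adjusted p = 0.00139) and is therefore uncertain.

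A pair of genes among the 12 largest increases came with an uneven set of digestive enzymes. Try5, a trypsin, was at 74.3 and 0 in the controls and 500 and 5662 in GS4T (adjusted p = 0.0499), and Gp2, a zymogen granule membrane protein, was at 61.6 and 0 and then 396 and 3810 (adjusted p = 0.0493). Both lost the call without GWTT 2, GS4T 1 or GS4T 2. A list of 17 pancreatic acinar genes, assembled after these values were seen, summed to 373 and 14.2 CPM in the controls and 468 and 4563 in GS4T, so that GWTT 1 and GS4T 1 stood close together and GS4T 2 stood apart. Only 3 of the 17 were called, and the part of acinar RNA in these values was not tested.

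The largest decreases in the stromal or unassigned class included neural adhesion molecules, ion channels and a Wnt ligand. Ifi202b, an interferon-inducible gene whose level is known to differ between inbred mouse strains, fell from 844 and 928 normalized counts to 0.886 and 1.17. These are 2 reads in all, or an 860-fold decrease (95% counting interval 246 to 7344). The part of strain background in the values of Ifi202b was not tested. Negr1, an adhesion molecule of the IgLON family, fell from 1121 and 1409 to 35.4 and 7.05 (log2 fold change -6.20, adjusted p = 0.0039). Opcml, of the same family, fell from 460 and 382 to 7.09 and 4.7 (log2 fold change -5.95, adjusted p = 0.00113). Wnt16 fell from 78.2 and 103 to 1.77 and 0, or 102-fold (interval 24.8 to 755). None of these groups overlapped, as in every called gene.

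Other large decreases lay in channels and enzymes. Aldh3a1, an aldehyde dehydrogenase, fell from 205 and 203 to 1.77 and 8.22 (log2 fold change -5.34, adjusted p = 0.00529). The potassium channel Kcnj5 (155 and 106, then 3.54 and 0) lost its call without GWTT 1, and the calcium channel Cacna1e (329 and 625, then 2.66 and 34.1) lost it without GWTT 1 or GWTT 2. Klk1b22, a kallikrein, had 42 and 66.8 in the controls and no read in GS4T, at least 17.6-fold lower, and the ribonuclease Rnase2b (35.2 and 63.9, then 0 and 0) was at least 16-fold lower. Both of these lost the call without GWTT 2. The receptor Gpr37 (36.2 and 34.8, then 0 and 0) was at least 11.5-fold lower and lost the call without GWTT 1 or GWTT 2. Tnfrsf17, the plasma cell receptor BCMA, was at 110 and 133 and then 0 and 7.05, and Ly6c2, a surface antigen of monocytes and plasma cells, at 1441 and 2076 and then 20.4 and 127. Tnfrsf17 lost its call without GWTT 1 or GWTT 2. Plasma cell genes fell in the same libraries, and their part in the values of Tnfrsf17 and Ly6c2 was not tested.

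**Figure D3:**
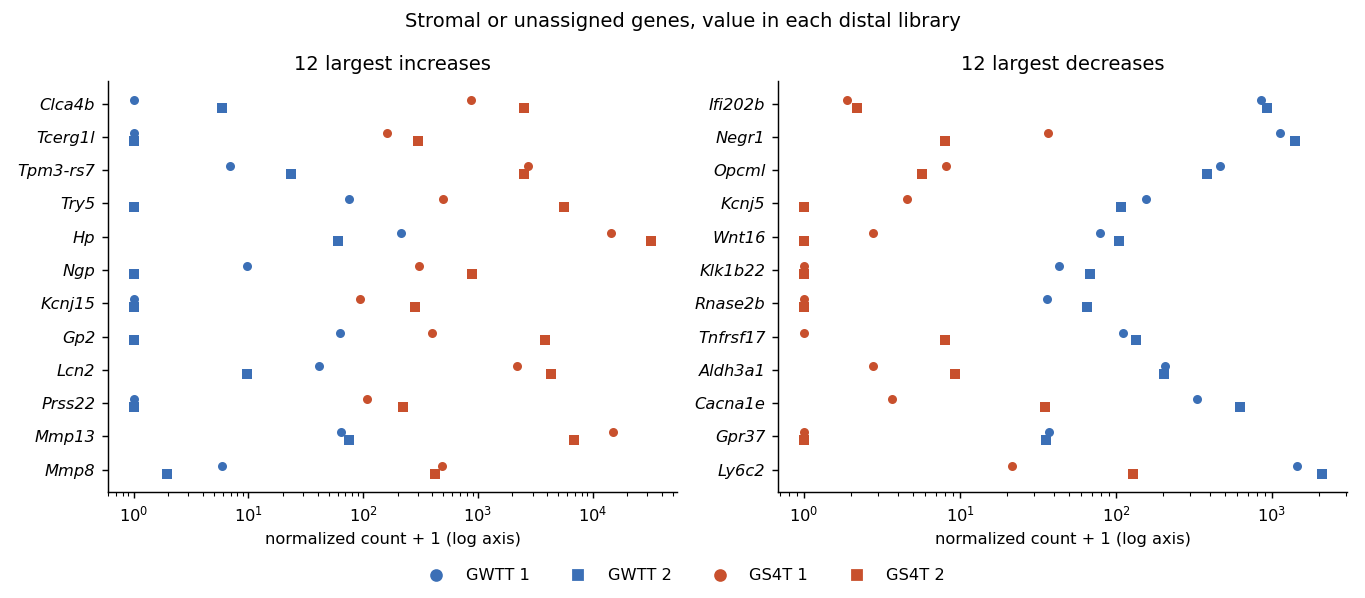
Normalized count + 1 (log axis) in each of the 4 distal libraries for the 12 largest increases and the 12 largest decreases of the stromal or unassigned class. In every gene shown the GWTT and GS4T points did not overlap, as in every called gene. Try5 and Gp2 showed the widest gap between libraries of the same group.

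Textbook BMP target genes moved in the lower direction. Of 11 targets tested (the other listed gene, Msx2, had no row), 7 were lower and none was higher in GS4T, with a median log2 fold change of -1.09 beside 0.0 for all genes. With GWTT 1, GWTT 2, GS4T 1 or GS4T 2 left out, 4, 2, 6 and 5 of them were called lower, and without GS4T 1 the target Atoh8 was called higher (log2 fold change 1.01, adjusted p = 0.028). Id4, an inhibitor of basic helix-loop-helix transcription factors, fell from 306 and 281 normalized counts to 32.8 and 48.1 (log2 fold change -2.85, adjusted p = 0.00348). Id1 fell from 600 and 799 to 205 and 298 (log2 fold change -1.48, SE 0.24, adjusted p = 0.0111), Id3 from 4643 and 5646 to 2326 and 2493 (log2 fold change -1.09, adjusted p = 0.0049), and Id2 from 1348 and 1507 to 816 and 572 (log2 fold change -1.06, adjusted p = 0.0147). Each Id gene was lower in both GS4T libraries than in both controls, as was every gene called lower. Id1 and Id3 lost the call without GWTT 2, and Id2 lost it without GWTT 1, GWTT 2 or GS4T 2.

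The remaining targets were mixed. Smad9, a BMP-responsive Smad that is also a target, fell from 566 and 607 to 96.5 and 128 (log2 fold change -2.39, adjusted p = 0.00209). Bambi, a decoy receptor of the pathway, fell from 322 and 376 to 98.3 and 169 (log2 fold change -1.42, adjusted p = 0.0242), a call that was lost without GWTT 1 or GWTT 2. Hey1, a Notch and BMP target, stood at 165 and 144 and then 70 and 72.8 (log2 fold change -1.10, adjusted p = 0.034), a call that was lost when any of the 4 libraries was left out. Smad6 and Smad7, the inhibitory Smads, had log2 fold changes of -0.30 and -0.04, Atoh8 of 0.43 and Msx1 of 0.0, and none of these was called.

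Promoter sequences are shown for the targets that held a Smad motif, as the DNA to which these values refer. Of the 12 listed targets, 8 had a promoter in the RefSeq table (build GRCm38.p6, 250 bases before to 50 after the start site): Id2, Id3, Id4, Smad6, Smad9, Atoh8, Msx1 and Msx2. Both strands were searched for GTCTAGAC, the Smad3 and Smad4 palindrome, for GGCGCC, a GC-rich Smad site, and for the Gli site GACCACCCA, of which GTCTAGAC and GACCACCCA can share the letters GAC. GGCGCC was found in Id2, Id4 and Smad9, all of which fell, and GTCTAGAC in Smad6, which was not called. Id3, which also fell, held no motif. Atoh8 and Msx1, which were not called, and Msx2, which had no row, held no motif either. The Gli site was found in none of the 8. Over all 32851 promoters of the table, 11.9% held GGCGCC, 0.213% held GTCTAGAC and 0.253% held GACCACCCA, and a match is a description of the letters, not a binding site. In the sequences, written 5′ to 3′ on the strand of the gene, the capitals mark the motif. Id2 lies at chr12:25096043-25096342 on the minus strand, Id4 at chr13:48260866-48261165 on the plus strand, Smad9 at chr3:54755332-54755631 on the plus strand and Smad6 at chr9:64022010-64022309 on the minus strand.
Id2: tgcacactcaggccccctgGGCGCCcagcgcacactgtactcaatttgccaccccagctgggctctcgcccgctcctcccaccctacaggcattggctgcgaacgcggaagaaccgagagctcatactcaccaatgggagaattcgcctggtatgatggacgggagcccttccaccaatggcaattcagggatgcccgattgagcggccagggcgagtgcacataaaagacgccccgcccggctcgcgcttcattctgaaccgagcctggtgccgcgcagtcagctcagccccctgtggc
Id4: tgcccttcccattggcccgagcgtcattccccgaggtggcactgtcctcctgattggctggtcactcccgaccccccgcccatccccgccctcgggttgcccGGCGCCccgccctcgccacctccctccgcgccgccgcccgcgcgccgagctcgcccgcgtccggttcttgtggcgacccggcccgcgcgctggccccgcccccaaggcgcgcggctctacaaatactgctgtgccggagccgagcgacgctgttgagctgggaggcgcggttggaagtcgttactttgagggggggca
Smad9: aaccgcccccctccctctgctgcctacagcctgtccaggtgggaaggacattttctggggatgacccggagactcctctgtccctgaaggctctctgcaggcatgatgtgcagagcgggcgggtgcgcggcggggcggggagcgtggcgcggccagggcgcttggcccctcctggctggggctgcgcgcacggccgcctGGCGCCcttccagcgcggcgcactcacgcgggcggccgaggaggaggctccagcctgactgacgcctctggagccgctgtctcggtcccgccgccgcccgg
Smad6: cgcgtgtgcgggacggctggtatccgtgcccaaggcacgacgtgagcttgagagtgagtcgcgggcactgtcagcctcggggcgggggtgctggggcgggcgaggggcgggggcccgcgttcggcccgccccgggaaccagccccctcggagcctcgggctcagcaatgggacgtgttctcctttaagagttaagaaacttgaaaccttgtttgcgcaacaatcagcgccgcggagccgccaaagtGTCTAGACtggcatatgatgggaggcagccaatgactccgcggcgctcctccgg
Of the 3 largest increases and 3 largest decreases in the stromal or unassigned class, 5 had a promoter in the table, and Tcerg1l alone among them held GGCGCC. Tpm3-rs7 had no entry.

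BMP ligands and antagonists changed in both directions. Among 9 ligands tested, 2 were higher and 2 were lower (median -0.23), and among 13 secreted antagonists, 4 were higher and 1 was lower (median 0.11). Bmp6 fell from 6462 and 5747 normalized counts to 1941 and 2090 (log2 fold change -1.60, adjusted p = 0.00137), and Gdf10 fell from 1078 and 1064 to 317 and 663 (log2 fold change -1.22, adjusted p = 0.0473). Bmp7 rose from 2327 and 2315 to 6002 and 5249 (log2 fold change 1.27, adjusted p = 0.00216), and Bmp8b, without a read in the controls, was at 62 and 155 in GS4T, at least 37.2-fold higher. Bmp4 stood at 13663 and 13359 and then 7766 and 6193 (log2 fold change -0.96, adjusted p = 0.00967), and thus missed the fold threshold. The call of Gdf10 was lost without GWTT 1, GWTT 2 or GS4T 1.

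Among the antagonists, Grem1, which sequesters BMP2 and BMP4 near the crypt base, rose from 4652 and 3750 to 17227 and 17186 (log2 fold change 2.04, adjusted p = 0.00132). Chrdl2, a chordin-like antagonist, rose from 104 and 71.6 to 1019 and 1346 (log2 fold change 3.75, adjusted p = 0.00115), and Bmper, a BMP-binding regulator, from 252 and 183 to 1184 and 1832 (log2 fold change 2.77, adjusted p = 0.00244). Fst, the activin antagonist follistatin, rose from 55.7 and 50.3 to 128 and 260 (log2 fold change 1.77, adjusted p = 0.0287). Chrdl1, the paralog of Chrdl2, moved the opposite way, from 394 and 421 to 54 and 51.7 (log2 fold change -2.92, adjusted p = 0.00156). All of these groups were separate, as in every called gene. The call of Fst was lost without GWTT 1, GWTT 2 or GS4T 2.

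Receptors and Smads were called at about the 14.0% share of all genes. Of 15 receptors and co-receptors, none was higher and 2 were lower (median 0.10), namely Bambi and the co-receptor Rgmb (1427 and 1894, then 613 and 806, log2 fold change -1.22, adjusted p = 0.0105). The receptor Tgfbr1 came closest to a higher call (1709 and 1897, then 3503 and 3632, log2 fold change 0.99, adjusted p = 0.00382). A single receptor was called higher without GWTT 2, without GS4T 1 and after scaling over stromal or unassigned genes. The endothelial and stromal BMP receptor Acvrl1 had 4872 and 4713 and then 2506 and 2432 (log2 fold change -0.96, adjusted p = 0.00335). Among 8 Smads, Smad9 was called. Smad1 stood at 828 and 625 and then 1273 and 1483 (log2 fold change 0.93, adjusted p = 0.016), whereas Smad2, Smad3 and Smad5 had log2 fold changes of -0.01, -0.37 and 0.07. The call of Rgmb was lost without GWTT 2.

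On the TGF-β and activin side, 2 of 9 ligands were higher and 2 were lower (median 0.59). Inhba, which encodes the subunit of activin A, rose from 406 and 379 to 7286 and 2171 (log2 fold change 3.34, adjusted p = 0.0098), and Inhbb, the subunit of activin B, from 185 and 173 to 1424 and 1898 (log2 fold change 3.19, adjusted p = 0.000754). Tgfb3 fell from 1469 and 1443 to 612 and 578 (log2 fold change -1.29, adjusted p = 0.00197) and the Nodal inhibitor Lefty1 from 177 and 250 to 78.8 and 63.4 (log2 fold change -1.56, adjusted p = 0.0175). Of 16 textbook TGF-β target genes, 3 were higher and 1 was lower (median 0.39). Tnc, the matrix glycoprotein tenascin C, rose from 8293 and 7173 to 55073 and 34253 (log2 fold change 2.49, adjusted p = 0.00298), and Ltbp2, a latent TGF-β binding protein relative, from 304 and 76.5 to 3372 and 3112 (log2 fold change 4.40, adjusted p = 0.00649). Postn, periostin, fell from 76026 and 78009 to 37964 and 35124 (log2 fold change -1.08, adjusted p = 0.018). The call of Postn was lost without GWTT 1, GWTT 2 or GS4T 1, and that of Lefty1 without GWTT 1 or GWTT 2. The connective tissue growth factor gene Ccn2 hardly differed, with 6225 and 6317 in the controls and 6126 and 6228 in GS4T (log2 fold change -0.02, SE 0.11).

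**Figure D4:**
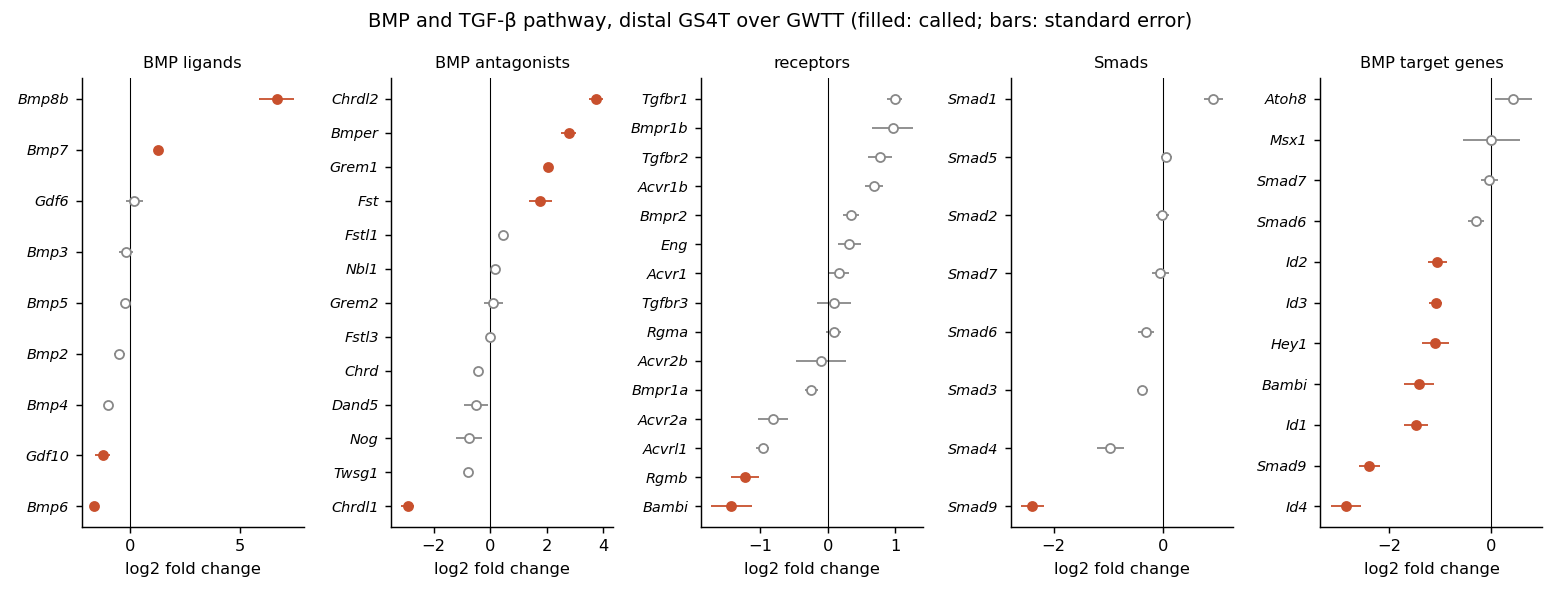
Log2 fold change (GS4T over GWTT) with its standard error for the members of the BMP and TGF-β pathway lists, 1 panel for each list, with filled points for called genes. The BMP targets lay to the lower side with Id4 at -2.85, and the antagonists Chrdl2 (3.75) and Chrdl1 (-2.92) lay at opposite ends of their panel.

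Hedgehog pathway genes lay on the lower side, as Gli1 did. Of 15 tested, 5 were lower and none was higher (median -0.52), and 3 to 4 of them were called with any 1 library left out, the fewest without GWTT 1 or GS4T 2. Hhip, a Hedgehog-binding target, fell from 3357 and 3813 normalized counts to 461 and 476 (log2 fold change -2.93, adjusted p = 0.000405). The receptor and target Ptch1 fell from 12320 and 15740 to 6964 and 6740 (log2 fold change -1.02, adjusted p = 0.00907), and the co-receptor Gas1 from 1459 and 1135 to 615 and 626 (log2 fold change -1.05, adjusted p = 0.00804). The co-receptor Cdon was called lower too (log2 fold change -1.04, adjusted p = 0.0279). The transcription factors Gli2 (1941 and 1980, then 1221 and 1350) and Gli3 (1213 and 1352, then 858 and 928) stayed under the fold threshold. The call of Ptch1 was lost without GWTT 2 or GS4T 2, that of Gas1 without GWTT 1, and that of Cdon without GWTT 1, GS4T 1 or GS4T 2.

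Wnt ligands split. Of 12 tested, 4 were higher and 4 were lower (median -0.22). The 4 decreases were called whichever library was left out, whereas only 1 or 2 of the increases were. Wnt2b fell from 8404 and 7831 to 2050 and 2297 (log2 fold change -1.90, adjusted p = 0.000947), Wnt4 from 3811 and 4027 to 1136 and 665 (log2 fold change -2.17, adjusted p = 0.00425) and Wnt5b from 1089 and 842 to 355 and 301 (log2 fold change -1.55, adjusted p = 0.00437), and Wnt16 is given above. Wnt5a, a non-canonical Wnt of fibroblasts close to the epithelium, rose from 3616 and 3593 to 9743 and 7634 (log2 fold change 1.26, adjusted p = 0.00437). The other increases were of low genes, Wnt6 (70.4 and 84.2, then 158 and 171), Wnt10a (0.978 and 3.87, then 39.9 and 25.8) and Wnt7b (0 and 0, then 70.9 and 12.9, at least 14.4-fold). The call of Wnt6 was lost whichever library was left out, that of Wnt10a without GWTT 1, GS4T 1 or GS4T 2, and that of Wnt7b without GWTT 1, GWTT 2 or GS4T 1. None of the 3 R-spondins, which amplify Wnt signals, was called by limma, and at an unadjusted p under 0.05 none reached the fold threshold either, Rspo3 being at 114 and 118 and then 242 and 189 (log2 fold change 0.87, adjusted p = 0.0482).

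Secreted Wnt antagonists were called higher in 5 and lower in 2 of 12 (median 0.46), with 3 or 4 of the increases called when 1 library was left out. Frzb rose from 317 and 277 to 3345 and 3919 (log2 fold change 3.61, adjusted p = 0.000391), and Draxin, also a repulsive axon guidance cue, from 15.6 and 5.81 to 466 and 1103 (log2 fold change 6.08, adjusted p = 0.00278). Dkk2 (14.7 and 24.2, then 350 and 98.6) and Wif1 (454 and 338, then 789 and 894) were called too, and the fifth, Kremen2, belonged to the epithelial class. Sfrp2 (1321 and 1844, then 503 and 535) and Sfrp4 (872 and 704, then 338 and 281) fell. The call of Dkk2 was lost without GWTT 1, GWTT 2 or GS4T 1, and that of Wif1 without GWTT 2. Of 10 textbook Wnt targets, only Lef1 and Nkd2 were called, at log2 fold changes of 1.02 and 1.09, and both calls were lost whichever library was left out.

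Markers of fibroblast subsets changed unequally. Of 16 genes of the Pdgfra-low fibroblasts, 2 were higher and 6 were lower (median -0.37), and 5 to 7 were lower when any 1 library was left out. Gsn, the actin-severing protein gelsolin, fell from 233024 and 234574 normalized counts to 22832 and 25544, or 9.67-fold (log2 fold change -3.28, adjusted p = 0.00144). The plasminogen-binding Clec3b fell from 16478 and 15875 to 2074 and 1727 (log2 fold change -3.09, adjusted p = 0.000528), the surface sialomucin Cd34 from 11693 and 10717 to 2167 and 2054 (log2 fold change -2.41, adjusted p = 0.000577) and the adventitial fibroblast marker Pi16 from 4091 and 3868 to 1175 and 1143 (log2 fold change -1.78, adjusted p = 0.000827). The 2 higher members were Grem1 and Igf1. Of 15 genes of the Pdgfra-high subepithelial cells, or telocytes, 4 were higher (Bmp7, Wnt5a, Nrg1 and Frzb) and Enho was lower (median 0.48), with 3 lower without GS4T 1. Of 14 pan-fibroblast genes, 3 were lower and none was higher (median 0.22), these being Dcn (95165 and 98002, then 47594 and 45225), Lum (19144 and 17820, then 5172 and 3894) and Mgp (7563 and 6781, then 803 and 800). The call of Dcn was lost whichever library was left out. Pdgfra itself stood at 20211 and 18516 and then 35326 and 34452 (log2 fold change 0.85, adjusted p = 0.0166), under the fold threshold.

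Pericyte genes were higher as a group. Of 7 tested, 5 were higher and none was lower (median 2.14), with 5 or 6 called when any 1 library was left out, and the list summed to 237 and 245 CPM in the controls and 887 and 699 in GS4T. Kcnj8, a subunit of the vascular potassium channel, rose from 350 and 492 normalized counts to 2673 and 3192 (log2 fold change 2.81, adjusted p = 0.00123). Notch3 (154 and 216, then 1277 and 802), Mcam (388 and 353, then 2252 and 1428), Rgs5 (1060 and 848, then 3920 and 3005) and Abcc9 (760 and 760, then 3125 and 2561) rose as well. Contractile genes of smooth muscle were mixed, with 1 of 14 higher and 3 lower (median 0.02). Actg2, the enteric γ-actin, rose from 749 and 699 to 3697 and 2105 (adjusted p = 0.00631), whereas Myh11, the smooth muscle myosin, fell from 8018 and 7718 to 4041 and 2705 (adjusted p = 0.0103) and Lmod1 from 515 and 476 to 209 and 169 (adjusted p = 0.00625), and the third was Hhip. Without GWTT 1 only 1 of these 14 was called lower, and without GS4T 2 there were 4 called higher. The call of Myh11 was lost without GWTT 1, GWTT 2 or GS4T 2.

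Transcription factors of mesenchymal development were called in both directions, 2 higher and 3 lower of 22 (median 0.07). Osr1 fell from 3041 and 3257 to 291 and 317 (log2 fold change -3.37, adjusted p = 0.000355), Tcf21 from 11626 and 10030 to 2218 and 2386 (log2 fold change -2.23, adjusted p = 0.000754) and Zeb2 from 8274 and 8951 to 4178 and 3814 (log2 fold change -1.11, adjusted p = 0.00335). Runx1 rose from 763 and 692 to 2123 and 2215 (log2 fold change 1.58, adjusted p = 0.00132), and Prrx1 from 156 and 196 to 740 and 352 (log2 fold change 1.54, adjusted p = 0.0323). Of 22 Hox genes, which set position along the gut, 3 were lower, all of the HoxD cluster, beside 6.08% of all genes tested. Hoxd13 fell from 307 and 295 to 34.5 and 49.3 (log2 fold change -2.84, adjusted p = 0.00321), Hoxd11 from 200 and 185 to 33.7 and 39.9 (log2 fold change -2.36, adjusted p = 0.00539) and Hoxd10 from 127 and 156 to 16.8 and 36.4 (log2 fold change -2.46, adjusted p = 0.017). The only higher Hox gene, Hoxb13, was in the epithelial class. The call of Prrx1 was lost without GWTT 1, GWTT 2 or GS4T 1, and that of Hoxd10 without GWTT 1 or GWTT 2.

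Matrix genes held many calls, and the called laminin chains were all on the higher side. All 5 called laminin chains of 11 were higher (median 0.65), and 5 were called whichever library was left out. Lama1 rose from 759 and 841 normalized counts to 8291 and 11450 (log2 fold change 3.61, adjusted p = 0.000595), and Lama5 from 2409 and 2142 to 9448 and 8725 (3.99-fold, adjusted p = 0.000862). Lama3 (41.1 and 65.8, then 679 and 1070) and Lamb3 (22.5 and 33.9, then 662 and 1256) rose too, but Lamb3 was also present in control goblet cells at 102 CPM, and the part of the epithelial cells was not tested.

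Of 37 collagen chains, 9 were higher and 6 were lower (median 0.30), which became 6 and 3 without GWTT 1 and 4 and 3 without GWTT 2. The basement membrane chains Col4a1 (52133 and 39988, then 150367 and 155697, log2 fold change 1.74, adjusted p = 0.00982) and Col4a2 (31175 and 23714, then 90488 and 95257, log2 fold change 1.77, adjusted p = 0.006) rose together. Col7a1, the chain of the anchoring fibrils, rose from 155 and 94.9 to 3605 and 3465 (log2 fold change 4.86, adjusted p = 0.000609), and Col18a1, the source of endostatin, from 13339 and 11355 to 53967 and 55733. Col15a1 fell from 26229 and 19370 to 5462 and 4252 (log2 fold change -2.23, adjusted p = 0.00229), and Col14a1, a fibril-associated collagen, from 28970 and 28377 to 8405 and 8172 (log2 fold change -1.79, adjusted p = 0.0014). The chains Col4a5 (5250 and 4838, then 2750 and 1239) and Col4a6 (2636 and 2063, then 733 and 217), which pair with each other, fell while Col4a1 and Col4a2 rose. The calls of Col4a1 and Col4a6 were lost without GWTT 1 or GWTT 2, that of Col4a5 without GWTT 1, GWTT 2 or GS4T 2, and that of Col4a2 without GWTT 2.

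Of 26 elastic fibre and small leucine-rich proteoglycan genes, 4 were higher and 7 were lower (median -0.31), with 2 higher when either control was left out. The collagen cross-linking enzyme Lox rose from 2444 and 1954 to 12457 and 16625 (log2 fold change 2.72, adjusted p = 0.00123) and Loxl2 from 12020 and 10508 to 35637 and 29759 (log2 fold change 1.53, adjusted p = 0.00384). Fbln1, fibulin 1, fell from 51662 and 46605 to 8440 and 13646 (log2 fold change -2.19, adjusted p = 0.00437), and the small proteoglycans Aspn (3817 and 4400, then 1225 and 1236) and Ogn (13828 and 14104, then 4473 and 5209) fell with Dcn and Lum. Hyaluronan genes were called higher in 3 and lower in 4 of 17 (median 0.30). Cemip, which degrades hyaluronan, rose from 32.3 and 21.3 to 3399 and 2675, or 113-fold (log2 fold change 6.79, SE 0.26, adjusted p = 0.000391). The hyaluronan synthase Has1 fell from 2897 and 5133 to 640 and 766 (log2 fold change -2.46, adjusted p = 0.00394), and the link protein Hapln1 from 1273 and 1650 to 76.2 and 42.3 (log2 fold change -4.65, adjusted p = 0.0012).

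Matrix proteases contained some of the widest shifts. Of 36 MMP and ADAMTS genes, 11 were higher and 5 were lower (median 0.64), with 9 to 11 higher when any 1 library was left out and 3 lower without GWTT 2. Next to Mmp13 and Mmp8, Mmp10, stromelysin 2, rose from 151 and 116 to 16851 and 9088 (log2 fold change 6.54, adjusted p = 0.000577), and Mmp3, stromelysin 1, from 490 and 288 to 10304 and 7361 (log2 fold change 4.53, adjusted p = 0.00104). Mmp3, Mmp8 and Mmp13 lie in the same region of chromosome 9 of GRCm38. There Mmp13 spans 7272514 to 7283331, Mmp3 7445822 to 7455975 and Mmp8 7558456 to 7568485. Mmp9, a gelatinase of the leukocyte class, went from 151 and 174 to 5209 and 1286 (log2 fold change 3.99, adjusted p = 0.00909). Among the decreases, Adamts10 fell from 8108 and 8148 to 1755 and 1956 (log2 fold change -2.13, adjusted p = 0.000648) and the membrane-bound Mmp16 from 308 and 314 to 84.1 and 69.3 (log2 fold change -2.01, adjusted p = 0.00434). Of 7 protease inhibitors, Serpine2 (1155 and 994, then 4153 and 4062) and Timp1 (697 and 372, then 2514 and 1225) rose and Reck, a membrane-bound inhibitor of MMPs, fell (2934 and 3239, then 1035 and 1172). The call of Timp1 was lost without GWTT 2 or GS4T 1.

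Integrins, the receptors for this matrix, were called higher in 10 and lower in 4 of 26 (median 0.66), but 4 of the 10, Itga3, Itga6, Itgb4 and Itgb6, are epithelial class genes, of which Itga6 and Itgb4 form the integrin of hemidesmosomes, and Itgb2l and Itgam were not of the stromal or unassigned class either. Among the 18 integrins of the stromal or unassigned class, 4 were higher and 4 were lower (median 0.09). The stromal increases were Itga1 (1653 and 1666, then 7429 and 6248, log2 fold change 2.04, adjusted p = 0.000947), Itga5 (2424 and 2476, then 9066 and 8727, log2 fold change 1.86, adjusted p = 0.000754), Itgb3 (1149 and 1151, then 4215 and 3349, log2 fold change 1.71, adjusted p = 0.0017) and Itga7. Itga8 fell from 332 and 374 to 120 and 54 (log2 fold change -2.11, adjusted p = 0.017). Without GWTT 2 only 1 integrin was called lower. The call of Itga8 was lost without GWTT 1 or GWTT 2.

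Interleukin genes that the study named, a list chosen on these samples and therefore not independent of them, were called higher in 3 and lower in 1 of 7 tested (median 1.08). Il1a, an alarmin of the interleukin 1 family, rose from 38.1 and 37.8 normalized counts to 1557 and 715 (log2 fold change 4.76, adjusted p = 0.0017), and Il1b from 428 and 411 to 4511 and 2077 (log2 fold change 2.86, adjusted p = 0.00484). Il11, a fibroblast cytokine of the interleukin 6 family, rose from 26.4 and 42.6 to 2043 and 811 (log2 fold change 5.22, adjusted p = 0.00229). In each of these genes GS4T 1 was the higher of the 2 deleted libraries, and the 3 calls held whichever library was left out. Il6 was not called (479 and 762, then 1317 and 530, log2 fold change 0.47), and its groups overlapped. Il9r (27.4 and 56.1, then 3.54 and 5.87, adjusted p = 0.032) lost its call without GWTT 1, GWTT 2 or GS4T 1, and Il22 (21.5 and 34.8, then 2.66 and 11.7) was not called. Il31ra was not called either. Il17a was too low to be tested (7.82, 1.94, 0 and 17.6), and Il13 and Il17f had no row. Macrophage and neutrophil marker sums were higher in the same GS4T libraries, and the part of these cells in the Il1a and Il1b values was not tested.

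Of 17 other cytokines, 6 were higher and 4 were lower (median 0.66), the lower ones numbering 2 when either control was left out. Csf3, the granulocyte colony-stimulating factor, rose from 4.89 and 16.5 to 1129 and 1552 (log2 fold change 7.03, adjusted p = 0.00156). Il1rn, the interleukin 1 receptor antagonist, rose from 58.7 and 117 to 1522 and 1409 (log2 fold change 4.13, adjusted p = 0.0017) and Tnfsf11, also called RANKL, from 32.3 and 76.5 to 474 and 714 (log2 fold change 3.52, adjusted p = 0.00558). Tnf (89 and 145, then 816 and 730), Il23a (0 and 3.87, then 159 and 74) and Osm (91.9 and 106, then 686 and 269) were the other increases. Il1rn, Tnf, Il23a and Osm are also products of macrophages and neutrophils, whose marker sums were 780 and 687 CPM in the controls and 2343 and 1272 in GS4T for macrophages and 20.6 and 14.8 and then 519 and 330 for neutrophils, and the part of these cells was not tested. Tnfsf13b, the B cell survival factor BAFF, fell from 3545 and 3623 to 896 and 1408 (log2 fold change -1.67, adjusted p = 0.00573), and Csf1, the macrophage colony-stimulating factor, from 8219 and 8864 to 3918 and 3267 (log2 fold change -1.25, adjusted p = 0.00342), together with Il15 and Tslp. The call of Osm was lost without GWTT 1 or GWTT 2, and that of Il23a without GS4T 1. Il15 and Tslp lost theirs when either control was left out.

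Chemokines were called higher in 12 and lower in 2 of 24 (median 0.98), with 10 to 13 higher when any 1 library was left out. The neutrophil attractants Cxcl5 (217 and 183, then 3819 and 4391, log2 fold change 4.35, adjusted p = 0.000355), Cxcl3 (6.85 and 4.84, then 1157 and 240, adjusted p = 0.00481) and Cxcl2 (536 and 619, then 4950 and 2512, adjusted p = 0.00464) rose, whereas Cxcl1 was not called (2212 and 3200, then 3717 and 3084). Cxcl14 rose from 1646 and 2002 to 14325 and 14110 (log2 fold change 2.97), Cxcl13, a B cell attractant, from 774 and 736 to 3347 and 9513 (adjusted p = 0.00973), and Ccl2, a monocyte attractant, from 456 and 538 to 2277 and 1543 (adjusted p = 0.00376). Cxcl12, which retains haematopoietic cells in the stroma, fell from 28171 and 24701 to 7823 and 9218 (log2 fold change -1.64, adjusted p = 0.00265). Among the 22 chemokines of the stromal or unassigned class, 10 were higher and 2 were lower (median 0.77). Macrophage and neutrophil marker sums were higher in the same GS4T libraries, and the part of these cells in the chemokine values was not tested.

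Acute phase and antimicrobial genes were nearly all called. Of 12 tested, 11 were higher and none was lower, with a median log2 fold change of 4.48, or 3.99 with genes absent from the controls set at their bound, and 8 to 10 were called when any 1 library was left out. Beside Hp and Lcn2, Saa3, a serum amyloid A of fibroblasts and macrophages, rose from 1265 and 164 to 22500 and 15931 (log2 fold change 5.37, adjusted p = 0.0111), with a wide gap between the controls. Cp, the copper-carrying ceruloplasmin, rose from 1274 and 1390 to 10013 and 13280 (log2 fold change 3.11, adjusted p = 0.000648), Lbp, which binds lipopolysaccharide, from 1346 and 772 to 2167 and 3577 (adjusted p = 0.0294) and the complement factor Cfb from 1888 and 1228 to 5178 and 5988 (log2 fold change 1.87, adjusted p = 0.00428). Nos2, the inducible nitric oxide synthase, went from 0 and 4.84 to 197 and 174 (adjusted p = 0.0078). Saa3 was at 0.153 CPM in the control goblet cells and at 0 in those of mice with stromal Smad4 loss. Macrophage, neutrophil and epithelial marker sums were higher in the same GS4T libraries. The part of these cells in the values of the acute phase and antimicrobial genes was not tested. The calls of Saa3 and Nos2 were lost without GS4T 1, and that of Lbp without GWTT 2 or GS4T 2.

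Complement, prostaglandin and interferon lists are read against the 14.0% of all genes called. Of 21 complement genes, 6 were higher and 1 was lower (median 0.09), but C1qb and C1qc were leukocyte genes and the increases numbered 3, 2, 3 and 7 without GWTT 1, GWTT 2, GS4T 1 and GS4T 2. C6 rose from 7.82 and 11.6 to 159 and 450 (adjusted p = 0.00531), and Cd55, which limits complement on cell surfaces, fell from 8645 and 7373 to 2891 and 2596 (log2 fold change -1.54, adjusted p = 0.00185). Of 17 prostaglandin genes, 2 were higher, none of them without GWTT 1, and 2 were lower (median 0.25), and Hpgd, which inactivates prostaglandin E2, fell from 916 and 790 to 175 and 122 (log2 fold change -2.53, adjusted p = 0.00204), as did the prostacyclin synthase Ptgis (1453 and 1438, then 560 and 517, adjusted p = 0.0017). Of 17 interferon-stimulated genes, 1 was higher and 1 was lower (median -0.46), and neither Oasl1 (higher) nor Ifit2 (lower) kept its call without GWTT 1 or GWTT 2.

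Growth factors that act on epithelium or on the stroma itself were called higher in 9 and lower in 3 of 23 (median 0.97), with 6 to 8 higher when any 1 library was left out. Nrg1, a ligand of ErbB receptors, rose from 708 and 753 to 5430 and 6247 (log2 fold change 2.99, adjusted p = 0.000405). Igf1 rose from 2312 and 3024 to 12985 and 13668 (log2 fold change 2.33, adjusted p = 0.00116) and Igfbp5, the only one of 6 IGF binding protein genes called, from 15378 and 11597 to 108321 and 101955 (log2 fold change 2.98, adjusted p = 0.00139). The EGF family ligands Ereg (2297 and 4134, then 9009 and 7264), Areg (137 and 223, then 340 and 492) and Btc (137 and 127, then 492 and 561) rose, and Bdnf, a neurotrophin, rose from 2.93 and 5.81 to 268 and 338 (log2 fold change 5.87, adjusted p = 0.0017). Another neurotrophin, Ntf3, fell (233 and 240, then 49.6 and 22.3, adjusted p = 0.0095), as did Pdgfd (972 and 833, then 216 and 211) and Nrg2 (168 and 216, then 20.4 and 10.6). The call of Ereg was lost without GWTT 1 or GS4T 1, that of Areg without GWTT 1, GS4T 1 or GS4T 2, and that of Ntf3 without GWTT 1 or GWTT 2.

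Among 13 angiogenic factors, 3 were higher and 2 were lower (median 0.17). Angpt4, a ligand of the Tie2 receptor, rose from 149 and 139 to 3793 and 4770 (log2 fold change 4.88, SE 0.15, adjusted p = 0.000355), whereas Tek, which encodes that receptor, fell from 1036 and 1025 to 279 and 385 (log2 fold change -1.65, adjusted p = 0.00401). Of 19 axon guidance genes, 4 were higher and 3 were lower (median 0.08). Ntn1, netrin 1, fell from 8400 and 7856 to 989 and 1016 (log2 fold change -3.02, adjusted p = 0.000355) and Sema3d from 876 and 997 to 132 and 177 (log2 fold change -2.60, adjusted p = 0.00156), whereas the adhesion molecule Chl1 rose from 884 and 712 to 4330 and 5389 (log2 fold change 2.61, adjusted p = 0.00104). Of 11 FGF ligands, Fgf12 (242 and 297, then 22.1 and 28.2) and Fgf18 (38.1 and 66.8, then 7.09 and 11.7) fell and Fgf1 was the only one higher (median -0.86). The calls of Fgf18 and Fgf1 were lost without GWTT 1, GWTT 2 or GS4T 1.

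Proliferation genes that the study plotted from these cells, again a list chosen on these samples, were higher in 7 of 12 (median 1.81), although the number called varied with single libraries. The median was 1.35, 2.16, 1.32 and 2.22 without GWTT 1, GWTT 2, GS4T 1 and GS4T 2. With all 4 libraries, 5 of the 12 were called higher with a pseudocount of 0.1 and 10 with DESeq2. Cdk1, the mitotic kinase, rose from 46.9 and 62.9 normalized counts to 413 and 260 (log2 fold change 2.57, adjusted p = 0.00558). Ccnb1, Ube2c, Ccnb2, Ccna2, Cdc20 and Cks2 were called with log2 fold changes of 2.20, 2.08, 2.07, 1.82, 1.66 and 1.56. Mki67 (275 and 533, then 1500 and 744, log2 fold change 1.46, adjusted p = 0.0561), Nusap1, Cdkn3, Ccnf and Mcm2 (299 and 316, then 539 and 338) did not pass. Without GWTT 1 or GS4T 1 a single member of the 12 was called, without GWTT 2 there were 4, and without GS4T 2 there were 8. All members but Mcm2 belonged to the epithelial class, being at least 4 times higher in control goblet cells, and epithelial markers were higher in the same libraries, whose part in the result was not tested. Of 20 further mitosis genes, 9 were higher (median 1.79), and 0, 6, 1 and 15 of them were higher without GWTT 1, GWTT 2, GS4T 1 and GS4T 2. Of 23 DNA replication genes, 2 were higher (median 0.75), near the 7.88% of all genes tested that were called higher. The median of this list was between 0.48 (without GWTT 1) and 0.87 (without GS4T 2) when 1 library was left out. Cdkn2b, the p15 inhibitor of cyclin-dependent kinases, rose from 52.8 and 28.1 to 195 and 178 (log2 fold change 2.25, adjusted p = 0.0131), a call that was lost without GS4T 1. Beside Cdk1, each of the other 6 called members of the 12 lost its call without GWTT 1 or GS4T 1.

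Immediate early genes, which also respond to tissue dissociation, were lower in 7 of 18 and higher in none (median -0.60). Egr1 fell from 37120 and 53281 to 13910 and 22682 (log2 fold change -1.32, adjusted p = 0.0293), Nr4a1 from 15353 and 23225 to 6388 and 7856 (log2 fold change -1.41, adjusted p = 0.0108) and Fos from 27174 and 33134 to 11530 and 16635 (log2 fold change -1.12, adjusted p = 0.0211). Without GWTT 2 or GS4T 1 only 3 of the 18 were called. Egr1 and Fos lost their calls without GWTT 1, GWTT 2 or GS4T 1, and Nr4a1 without GS4T 1. Ribosomal protein genes were flat by comparison, with 1 of 82 called (median -0.12), namely Rpl34, which fell from 3285 and 3477 to 1104 and 999 (log2 fold change -1.69, adjusted p = 0.00113).

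The epithelial class was mostly higher in GS4T. Of 14 pan-epithelial genes 13 were higher (median 3.35), and 6 were called without GS4T 2 and 8 without GS4T 1. Epcam went from 147 and 422 normalized counts to 1888 and 3361 (log2 fold change 3.33, adjusted p = 0.0097), and the tight junction gene Cldn4 from 14.7 and 60 to 845 and 1469 (log2 fold change 5.17, adjusted p = 0.00547). The largest increases were Duoxa2, the maturation factor of a hydrogen peroxide-producing oxidase (0 and 0, then 81.5 and 159, at least 41.1-fold higher), the immunoglobulin superfamily gene Igsf23 (0 and 0, then 54 and 63.4, at least 20.1-fold higher), and the antibacterial lectin Reg3g, with 0 and 1.94 and then 50.5 and 187 (123-fold, interval 30.3 to 920). Clca4a (4.89 and 15.5, then 376 and 748) and Itgb6 (0.978 and 2.9, then 93 and 220) followed. Goblet cell genes did not all move the same way. Muc2, the secreted mucin of the colon, was at 464 and 1100 and then 2843 and 10001, a call that was lost without GWTT 1 or GS4T 2, and 4 of 8 goblet genes were higher. Clca1, a protease secreted with this mucin, fell from 636 and 1127 to 70 and 141 (log2 fold change -3.08, adjusted p = 0.0064), and Ang4, an antimicrobial ribonuclease, from 68.5 and 122 to 7.97 and 3.52 (log2 fold change -3.86, adjusted p = 0.01), a call that was lost without GWTT 2. Rasd2, Insrr and Sspo were the other large decreases of this class, with log2 fold changes of -3.43, -2.95 and -2.03, and each lost its call when either control was left out.

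The leukocyte class split by cell type. All 9 neutrophil genes were higher (median 5.35, or 4.20 with genes absent from the controls at their bound), and 7 to 9 were called when any 1 library was left out. S100a8, a subunit of calprotectin, rose from 18.6 and 1.94 to 854 and 1029 (log2 fold change 6.95, adjusted p = 0.00515), and the neutrophil surface antigen Ly6g from 4.89 and 3.87 to 255 and 1012 (log2 fold change 6.57, adjusted p = 0.00332). S100a9 and Trem1 had log2 fold changes of 6.67 and 5.35, and the chemokine receptor Cxcr2 was at least 18.3-fold higher, whereas Trem1 lost its call without GS4T 1 or GS4T 2. Of 13 macrophage genes, 6 were higher, and between 2 (without GWTT 2) and 9 (without GS4T 2) were called when 1 library was left out. Lyz2, lysozyme, rose from 5085 and 2764 to 15403 and 8624 (adjusted p = 0.0296). Of 10 pan-leukocyte genes, 2 were higher and none was lower (median 0.38), and the list summed to 256 and 305 CPM in the controls and 484 and 325 in GS4T. Ptprc, the leukocyte antigen CD45, was not called (722 and 894, then 992 and 635, log2 fold change -0.02, adjusted p = 0.967). The call of Lyz2 was lost without GWTT 2 or GS4T 1.

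Immunoglobulin genes were mostly lower. Of 183 tested, 74 were lower and none was higher (median -3.72), with 32, 33, 68 and 127 lower without GWTT 1, GWTT 2, GS4T 1 and GS4T 2. There were 7 higher without GWTT 2, 12 higher without GS4T 1, 5 higher with a replicate block and 1 higher with a pseudocount of 10. Igha, the heavy chain of immunoglobulin A, fell from 187341 and 250638 normalized counts to 9144 and 61481 (log2 fold change -3.19, adjusted p = 0.0443), and Jchain, which joins its dimers, from 55665 and 76410 to 1754 and 7215. The controls were close together, and GS4T 2 was several times above GS4T 1. The κ variable segments Igkv8-19, Igkv4-50 and Igkv4-57-1 had log2 fold changes of -9.08, -8.49 and -8.17, and Igkv4-58 and Igkv1-99, without a read in GS4T, were at least 136-fold and 110-fold lower, and reads of such related segments can be split between copies. Igha lost its call without GWTT 1, GWTT 2 or GS4T 1, and Igkv8-19 lost its call without GWTT 1 or GWTT 2. Of 9 B and plasma cell genes, 7 were lower, with 3 without GWTT 1 and 2 without GWTT 2. Of 8 antigen presentation genes, 6 were lower (median -2.09), among them Cd74, the invariant chain (7303 and 8533, then 3198 and 1492, adjusted p = 0.0163), but none was called lower when either control was left out.

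The proximal colon offered a comparison with its own controls, 2 GS4T and 2 GWTT libraries that shared no sample with the distal ones. Whether the segments came from the same mice is not stated, and the tests treat their libraries as independent. There 1472 of 15319 genes were called (9.61%). Of the 1518 distal calls in the stromal or unassigned class that were tested in both segments, 736 were called in the same direction in the proximal colon, which was 48.5% of the distal and 61.7% of the 1193 proximal calls. Regardless of the call, 94.8% of these distal calls had the same sign in the proximal colon, against 78.3% of all such genes. Only Ccbe1 and Prrx1 were called in opposite directions. Clca4b, for example, had a log2 fold change of 9.26 in the distal and 9.93 in the proximal colon, Hp of 7.58 and 5.92, Il1a of 4.76 and 5.39, and Angpt4 of 4.88 and 3.14. Some proximal libraries stood apart. Gli1 was at 642, 1597, 1481 and 23.9 normalized counts in GWTT 1, GWTT 2, GS4T 1 and GS4T 2 of the proximal colon, and 1 control library there carried reads of the Y chromosome while the others did not.

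**Figure D5:**
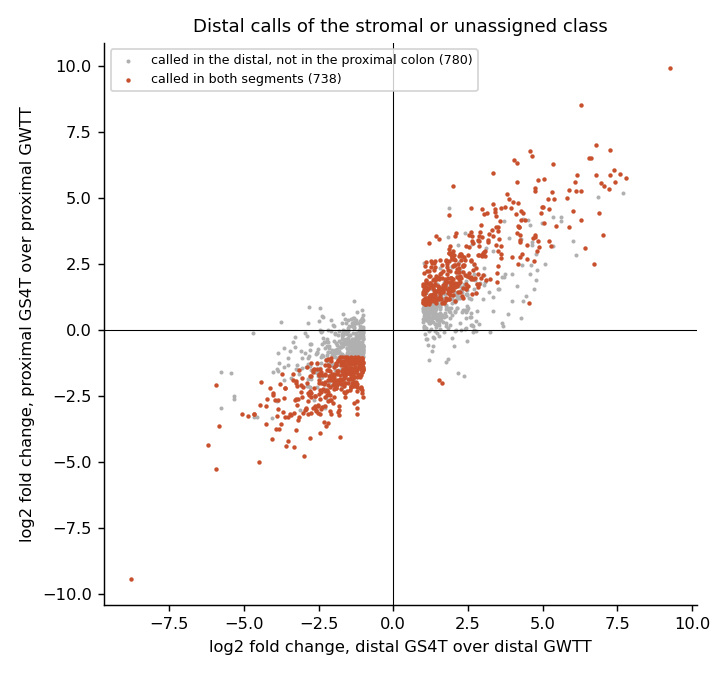
Log2 fold change (GS4T over GWTT) in the distal colon (horizontal axis) against the proximal colon (vertical axis) for distal calls of the stromal or unassigned class, with each point a gene. Most points lay in the quadrants of equal sign (94.8% of distal calls), and Ccbe1 and Prrx1 were called in opposite directions.

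The difference between the segments was tested directly as an interaction over the 8 libraries. It was called in 29 of 15314 genes (0.189%, and 798 at an unadjusted p under 0.05), with 7 higher and 22 lower in the distal colon. Mmp3 had a log2 fold change of 4.53 in the distal and 1.02 in the proximal colon, a difference of 3.51 (SE 0.40). Cd36, a fatty acid transporter, fell from 2171 and 1999 to 213 and 210 normalized counts in the distal colon and showed -0.27 on the log2 scale in the proximal colon, a difference of -3.02 (SE 0.34). In the proximal colon Cd36 was already at 227 and 394 in the controls and at 241 and 255 in GS4T. Hoxd11 differed by -2.86 and Tnfsf13b by -2.28, since both fell only in the distal comparison and had positive log2 values (0.50 and 0.61) in the proximal one. Tnfsf13b was at 518 and 571 in the proximal controls, against 3545 and 3623 in the distal ones. Hoxd11 was at 542 and 486 in the proximal controls, against 200 and 185 in the distal ones. Has2, the main hyaluronan synthase of fibroblasts, was called higher in the proximal colon (log2 fold change 2.04) and not in the distal one (-0.28). Its controls were at 302 and 283 in the proximal colon and at 1076 and 1406 in the distal one. The part of the control level in each difference was not tested. These calls were fragile, and none was made without GWTT 1 or GWTT 2 of the distal colon, or without GWTT 1, GS4T 1 or GS4T 2 of the proximal colon, whereas 83 were made without GWTT 2 of the proximal colon and 45 without GS4T 1 of the distal colon. Grem1 had log2 fold changes of 2.04 in the distal and -0.58 in the proximal colon, a difference of 2.62 (SE 0.38) that was not called. Bmp6 (-1.60 and -0.01), Bmp4 (-0.96 and 0.04) and Wnt4 (-2.17 and 0.02) were likewise lower in the distal values with a difference that was not called.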

How the data were processed

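RNA of tdTomato-sorted distal colon cells was made into libraries with a SMARTER mRNA-Seq kit and mapped to mm10 with STAR (2.5.3). The counting program, annotation and strand setting are not given in the sources used here. The deposited signal values are gene read counts that the authors divided by DESeq2 (1.28.1) size factors for each table, and their steps gave back whole reads for 100% of values (tolerance 0.1). Goblet cell values are recovered reads of 4 distal Muc2-mCherry libraries, and 44 columns of other per-sample values were not used.

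Normalized counts were tested as log2(value + 1) with limma (3.58.1, R 4.3.3, trend), calling genes whose adjusted p was under 0.05 and whose log2 fold change reached 1 in size, among those with a mean of 10 or more. The difference between segments was an interaction over 8 libraries of 2 tables normalized separately. Alternatives were pseudocounts of 0.1 and 10, no filter or a mean of at least 50, upper-quartile rescaling, edgeR (4.0.16) and DESeq2 (1.42.0) on recovered reads, a replicate block, each library left out, and other class boundaries. Added alternatives, scaling over stromal or unassigned genes and classes from the goblet cells of mice with stromal Smad4 loss or against GWTT libraries alone, were chosen after seeing the data. The code was tested on simulated data.

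Members and gene lists were chosen with earlier results of these data known. Named genes were the 12 largest called changes each way in the stromal or unassigned class, gene models and symbols stored as dates left out, the 5 largest each way in the other classes and in the segment difference, and called list members. Uncalled members outside the BMP target, Smad, interleukin and proliferation lists (Bmp4, Tgfbr1, Acvrl1, Ccn2, Pdgfra, Gli2, Gli3, Cxcl1, Rspo3 and Ptprc) were named after their values were seen. Folds against a group without reads use a floor of 3 reads per library, and floors and 95% intervals cover counting error only. GENCODE positions were matched by symbol for 16878 of 17114 rows. Some items are not reported here.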

Additional observations from a re-analysis of the deposited data

Results flagged for a closer look

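The genes below were singled out because the effect of Smad4 loss differed between the distal and the proximal colon in the interaction test, the 5 largest each way of 29 called. Each value is the distal minus the proximal log2 fold change (GS4T over GWTT). On the higher side, the difference was 3.81 for Bhlhe22, a transcription factor that rose from 28.4 and 15.5 to 329 and 561 normalized counts in the distal colon. In the proximal colon Bhlhe22 was already at 197 and 191 in the controls and at 287 and 256 in GS4T. The difference was 3.61 for Ccbe1, a lymphatic matrix protein that was called in opposite directions in the segments, and 3.51 for Mmp3. For Vegfd, a lymphatic growth factor, it was 2.11, since Vegfd fell in the proximal colon (log2 fold change -2.27) and was not called in the distal one (-0.15). For Aldoa it was 2.38, but this symbol is shared by more than 1 annotated gene. Aldoa was at 3492 and 3347 and then 5440 and 4877 in the distal colon. In the proximal colon it was at only 33.1 and 44.1 and then 12 and 8.97. The rows of the segments may therefore not be the same feature, and the difference of Aldoa cannot be read as one between segments.

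On the lower side, the difference was -3.06 for the immunoglobulin segment Igkv19-93, -3.02 for Cd36, -2.86 for Hoxd11, -2.32 for Has2 and -2.28 for Tnfsf13b. The differences of these 10 genes lay just inside the adjusted p threshold, and none was called by limma when either distal control was left out.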

How the results depend on the processing

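No called gene changed sign under any alternative. For a library left out, another pseudocount or another filter this was fixed beforehand, because the groups of every called gene did not overlap. The count of 2130 distal calls was between 1728 and 2404 under other pseudocounts, filters, scalings and tools (2042 with edgeR, 2404 with DESeq2). Leaving out 1 library gave 1194 to 1915 calls, with 732 to 943 higher and 405 to 972 lower. The lowest totals came without GWTT 1 (1194) and without GWTT 2 (1238), and the cause was not tested. Smad4 ranged from -1.35 (called, without GS4T 2) to -0.57. The epithelial class held 291 calls when drawn at 10 times and 557 against GWTT alone. The segment difference held 29 calls, 0 with a pseudocount of 0.1, 16 after upper-quartile rescaling, 798 at an unadjusted p under 0.05 and 0 to 83 with 1 library left out. The cause was not tested. Its edgeR and DESeq2 fits were not run, because reads were not recovered for 1 proximal library. Replicate numbers are shared by the groups without a stated pairing (correlation of deviations 0.0965 for the same number), and a replicate block gave 2333 calls (1338 higher, 995 lower), 23 for the segment difference and -0.96 for Smad4.

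Genes that were not called changed sign. Msx1 was -0.02 with a pseudocount of 10, -0.01 after upper-quartile rescaling and -0.11 with edgeR and with DESeq2. Smad2 was 0.02 with stromal scaling. With 1 library left out, Msx1 ranged from -0.54 to 0.54, Smad2 from -0.09 to 0.06, Smad7 from -0.24 to 0.15, Il6 from -0.19 to 1.12, Vegfd from -0.32 to 0.01 and Atoh8 from -0.14 to 1.01, where it was called higher (without GS4T 1). With 2 libraries a group, depth was not the limit for abundant genes, whereas genes of a few reads carry the wide intervals given with them.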

Other observations

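Markers of rarer cell types gave a few further values. Ret, a receptor of enteric neurons, and Tubb3, a neuronal tubulin, were called higher with log2 fold changes of 1.71 and 1.96, and both calls were lost when either control was left out. Of 4 mesothelial genes, 1 was higher (median -1.62), namely Msln at 23.5 and 60 normalized counts in the controls and 183 and 234 in GS4T, and that call was lost without GS4T 1 or GS4T 2. The higher members of the prostaglandin list were Ptgdr, the prostaglandin D2 receptor (0 and 0, then 19.5 and 27, at least 7.96-fold), and Slco2a1, a prostaglandin transporter (117 and 111, then 320 and 752). Mast cell genes had 1 row among 6 listed genes, which was too low to be tested. Of 8 mitochondrial genes, none was called by limma (median 0.49).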
